A study of Mus musculus with 16 samples.

Results

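Metallothioneins and their zinc regulators were followed here as 4 genes, Mt1, Mt2, Slc30a1 and Mtf1, out of 18193 mouse genes with a probe set of their own on the array. All 10 probe sets that carried 1 of these symbols, of 45101 on the array, were taken, 2 for Mt1, 1 for Mt2, 2 for Slc30a1 and 5 for Mtf1. The genes were chosen by their measured responses to DP and TSA on these arrays, so the changes of the 4 genes with DP or TSA are given as descriptions without a test. What was tested is whether the effects of the agents multiply, whether responses and levels differed between genotypes, and the changes of other zinc genes. These tests use the same arrays that led to the choice, and the joint response of Mt1 and Mt2 was in view when they were chosen.

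Metallothioneins are small cysteine-rich proteins that bind zinc and copper, buffer the free zinc of the cell and take up toxic metals such as cadmium. Their genes are switched on by MTF-1, a zinc finger factor encoded by Mtf1 that senses free zinc and binds metal response elements in promoters. Slc30a1 encodes ZnT1, which exports zinc across the plasma membrane and is a known MTF-1 target as well. Glucocorticoids, oxidative stress and hypoxia are other known inducers of metallothioneins.

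The cells were primary fibroblasts from mouse embryos (e14.5), infected at passage 3 with a Cre adenovirus, which deletes conditional (flox) alleles, and then expanded. The line flox1 carried 1 conditional allele of CBP (CBP+/flox) and flox2 1 conditional allele of p300 (p300 +/flox), and both are called control lines. CBP and p300 are related coactivators whose CH1 domain binds transcription factors such as HIF, the hypoxia-inducible factor. The line triCH1flox1 was CBP CH1/flox with p300 CH1/CH1, and triCH1flox2 was CBP CH1/CH1 with p300 CH1/flox, where CH1 is an allele with that domain deleted. All 4 lines therefore had Cre and a conditional allele, and the control class keeps alleles with CH1. Each line received, under normal oxygen, ethanol vehicle (EtOH), dipyridyl (DP, an iron chelator that stabilises HIF) at 100 µM, trichostatin A (TSA, a histone deacetylase inhibitor) at 100 ng/ml, or TSA followed 30 min later by DP. RNA was taken 3 h after the last addition. Each line and treatment was measured on 1 of 16 arrays, so the 8 groups of class and treatment held 2 lines each, and a line had no replicate cultures. For treatment effects and their class differences, the p values of the fitted model measure how the effects vary between the lines of a class. The estimate of that spread borrows from other genes. For levels by class they measure the spread between line means.

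Of the 10 fibroblast markers, 9 had a signal of at least 200 on at least 14 arrays, while of the fetal liver, macrophage, endothelial, erythroid and muscle markers none did. Among those lists the macrophage marker Csf1r reached 200 on 13 arrays, the muscle marker Des on 8 and the others on at most 4. Only 1 of 3 erythroid and 5 of 6 fetal liver markers were on the array. Of the 4 epithelial markers 1 did (Epcam, 199 to 1121, with Cdh1 at most 174), and of the 3 neural markers 1 did (Nes, 207 to 1391). Ep300, which encodes p300, averaged 436 in flox2 and 555 in triCH1flox2 over 4 treatments, below 836 in flox1 and 987 in triCH1flox1. Crebbp, which encodes CBP, averaged 993 in flox1 and 952 in triCH1flox1, below 1350 in flox2 and 1470.4 in triCH1flox2. Eif2s3y, on the Y chromosome, ran from 974 to 1519 in flox1 and flox2 against 8.9 to 82.9 in triCH1flox1 and triCH1flox2, so the sex of the embryos and the class cannot be told apart. The EtOH array of flox1 stood apart, with a 3'/5' signal ratio for Gapdh of 2.59 against 0.907 to 1.26 on the other 15 arrays, and member values that turn sign or move by over 1.5 times without it are given without it too.

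The letters next to the genes are shown first because the metal response element is what links Mt1, Mt2 and Slc30a1 to MTF-1. Sequences are RefSeq's on build GRCm38.p6, plus strand, 5′ to 3′, from a table of promoters that held all 4 genes. The core of the element was searched as TGCACNC or TGCGCNC on both strands in the 250 bases before each listed start, and each match is in capitals. Mt2 (chr8:94172618-94173567) had 3 matches in chr8:94172368-94172617. Mt1 (chr8:94178883-94180327) had 1 match in chr8:94178839-94179088, most of which lies inside the annotated gene. Slc30a1 (chr1:191906697-191913248) had 1 match in chr1:191906531-191906780, a window that also reaches into the annotated gene. All matches of Mt1 and Slc30a1 given here lay inside the annotated gene, upstream only of the start listed in the promoter table. Little of the sequence before the annotated Mt1 gene was searched, so the Mt1 counts here do not describe its promoter. Mtf1 (chr4:124802549-124849800) had 0 matches in chr4:124802299-124802548. The whole window is given for Mt2, and 25 bases around the match for the other genes, chr8:94179057-94179081 for Mt1 and chr1:191906729-191906753 for Slc30a1.
Mt2: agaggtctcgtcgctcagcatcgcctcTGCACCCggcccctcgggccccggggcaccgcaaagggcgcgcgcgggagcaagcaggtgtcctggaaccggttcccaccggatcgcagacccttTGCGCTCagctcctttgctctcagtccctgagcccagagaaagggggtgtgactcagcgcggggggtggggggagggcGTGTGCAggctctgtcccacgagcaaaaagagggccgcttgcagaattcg
Mt1: gtcccgctgTGCACACtggcgctcc
Slc30a1: gggggttccGAGTGCAaagcaaagt
The Mt2 match nearest the start and that of Slc30a1 read on the minus strand. Of 32851 promoters of the same length, 21.4% held at least 1 such core and 1.26% held at least 3. The HIF core, searched as ACGTG or GCGTG on both strands, was found 2 times in the window of Mt1, 1 time each in those of Mt2 and Slc30a1 and 0 times in that of Mtf1, and 38.6% of promoters held it. The HIF match of Mt2 overlapped its metal response match nearest the start. An antioxidant response core, TGACNNNGC on both strands, was found 1 time in the window of Mt2 and 1 time in that of Slc30a1, where it overlapped the HIF match, against 10.2% of promoters. A match is a run of letters and says nothing of binding in these cells.

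Mt1, on the brighter of its 2 probe sets, and Mt2 were raised by each agent in every line. Their highest signals in every line came with the agents together. The Mt1 signal, in Affymetrix units scaled to a trimmed mean of 500 on each array, was 2686 in flox1, 2396 in flox2, 3328 in triCH1flox1 and 2781 in triCH1flox2 under EtOH. Under DP it was 17242, 18108, 8851 and 11074 in the same order of lines. The lowest DP value was thus above the highest EtOH value, and both control lines were above both triCH1 lines. Under TSA alone the Mt1 signal was 5576, 5067, 7142 and 4301. Under TSA and DP it was 29297, 23861, 18039 and 19677. In each line the order was EtOH, TSA, DP and then the agents together, although over lines the DP and combined values met, since flox2 under DP (18108) exceeded triCH1flox1 under both agents (18039).

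Mt2, the neighbour of Mt1 on chromosome 8 and its close relative in sequence and function, followed the same course. Its signal under EtOH was 991 in flox1, 1509 in flox2, 1786 in triCH1flox1 and 1413 in triCH1flox2, and under DP it was 8849, 8604, 3572 and 5591. Under TSA it was 3485, 3028, 3811 and 3236, and under TSA and DP it was 18137, 14020, 8698 and 12262. The order of treatments was that of Mt1 in 3 of 4 lines, while in triCH1flox1 the DP value lay below the TSA value. As means over lines, Mt2 went from 1425 ± 330 (SD, n = 4) under EtOH to 3390 ± 337 under TSA, 6654 ± 2533 under DP and 13279 ± 3923 under both. Those of Mt1 went from 2798 ± 390 to 5522 ± 1201, 13818 ± 4558 and 22719 ± 5024. The DP means had the widest spread relative to their size in both genes, and under DP the control lines lay above the triCH1 lines.

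**Figure D1:**
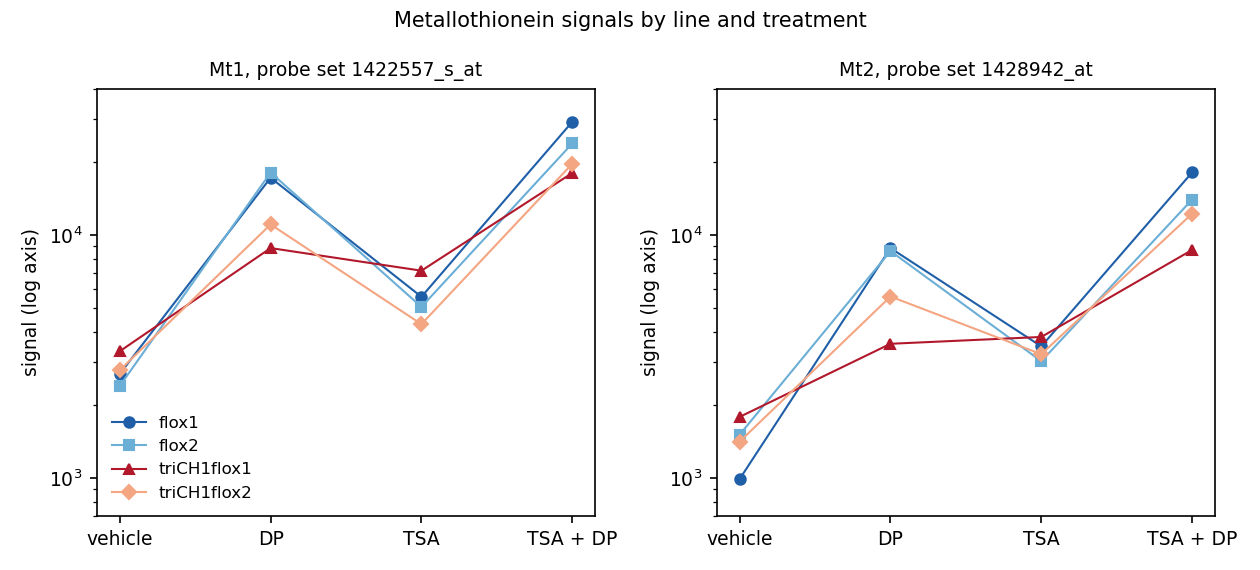
Signals of Mt1 and Mt2 (log axis) in 4 fibroblast lines under vehicle, DP, TSA and both agents, 1 array per point, with lines joining the arrays of 1 cell line. Both genes peak with TSA and DP together, at 18039 to 29297 for Mt1 and 8698 to 18137 for Mt2, and under DP the control lines (blue) lie above the triCH1 lines (red).

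On the log2 scale of signal plus 50, the fitted change of Mt1 over 4 lines was 2.23 with DP (SE 0.124, 4.69-fold) and 0.95 with TSA (1.94-fold). For Mt2 it was 2.12 with DP (SE 0.158, 4.36-fold) and 1.25 with TSA (2.37-fold). When DP was added to TSA-treated cells, the further change was 2.03 for Mt1 (4.08-fold) and 1.91 for Mt2 (3.76-fold). These were the 2 largest rises of DP on top of TSA among 11481 genes tested, whereas with DP alone the pair ranked 9 and 13. Over all genes 0.148% passed the test in that comparison (0.139% higher, 0.00871% lower), 1.71% with DP alone (1.44% higher, 0.27% lower) and 28.2% with TSA (15.8% higher, 12.5% lower). No test is drawn from these ranks, since the genes were chosen with them in view.

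The joint effect was tested as the DP change in TSA-treated cells minus the DP change in EtOH-treated cells, so that 0 means that the folds of the agents multiply. On the brightest probe set of each gene, none of the 4 departed from multiplying folds past an adjusted p of 0.05 (limma, Benjamini-Hochberg over 11481 genes). There 0 of 4 had an unadjusted p under 0.05. The dimmer probe set of Mt1, given below, had a joint effect of 1.46 (95% interval 0.41 to 2.51). Its unadjusted p in limma was 0.00975 and its adjusted p over probe sets 0.691. Mt1 and Mt2 were chosen with this contrast in view, so their p values are not an independent test. Over all genes 0.392% passed, all of them with a joint effect below the product of the folds. The difference was -0.20 for Mt1 (SE 0.175, 95% interval -0.57 to 0.17, adjusted p 0.932) and -0.21 for Mt2 (SE 0.223, interval -0.69 to 0.26, adjusted p 0.953). The intervals still allow a combined signal from 0.673 to 1.12 times the product for Mt1 and from 0.622 to 1.196 times for Mt2, so equality with the product is not shown. For Slc30a1 the difference was -0.09 (interval -0.54 to 0.36, adjusted p 0.979) and for Mtf1 0.19 (interval -0.36 to 0.73, adjusted p 0.961). The value of Slc30a1 turned to 0.06 without the EtOH array of flox1, and those of Mt2 and Mtf1 became -0.02 and 0.12.

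By line, the Mt1 difference was -0.28 in flox1, -0.67 in flox2, -0.07 in triCH1flox1 and 0.21 in triCH1flox2. For Mt2 it was -0.73, -0.28, 0.20 and -0.04. The control lines were below 0 for both genes and the triCH1 lines lay on either side of it. The difference between classes was 0.54 for Mt1 (adjusted p 0.849), 0.59 for Mt2 (adjusted p 0.863), 0.75 for Slc30a1 (adjusted p 0.842) and 0.56 for Mtf1 (adjusted p 0.876), and 0 of 4 had an unadjusted p under 0.05. No gene on the array passed that comparison (0%), in which 642 had an unadjusted p under 0.05. The arrays came in 2 series by their barcodes, and flox1 and triCH1flox2 were each wholly in 1 of them. In the mean over 4 lines the series of flox2 and triCH1flox1 cancel out, so a series term could not move the joint effects. With that term the class differences became 0.35 for Mt1, 0.03 for Mt2 and 1.04 for Mtf1. Without the EtOH array of flox1 the class difference was 0.19 for Mt2 and 0.46 for Slc30a1, and with the mean of probe sets it was 0.01 for Mt1 and -0.15 for Mtf1.

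Set against addition of signals, the combined treatment gave more than the sum. If the increments of DP and TSA over EtOH had added, Mt1 would have reached 20132 in flox1, 20778 in flox2, 12665 in triCH1flox1 and 12594 in triCH1flox2. The measured values were 1.46, 1.15, 1.42 and 1.56 times those sums. For Mt2 the sums were 11343, 10123, 5597 and 7413, and the measured values were 1.60, 1.38, 1.55 and 1.65 times those. The excess was above 0 in 4 of 4 lines for each gene, with a mean of 6177 ± 2580 (SD, n = 4) for Mt1 and 4660.0 ± 1592 for Mt2. In flox2 the array with both agents came from a different array series than its other arrays, as did the EtOH array in triCH1flox1. The values of these lines against the sum or the product are therefore confounded with the series. An exact two-sided sign-flip permutation test gave p = 0.125 for each gene, the smallest that 4 lines allow. With so few lines this test could not pass the threshold whatever the values, so no conclusion is drawn from it. The joint response of Mt1 and Mt2 was in view when they were chosen, so their excess over the sum is a description. Against the product of the folds, the measured Mt1 signal was 0.818, 0.623, 0.950 and 1.15 times the expected value, and that of Mt2 was 0.583, 0.812, 1.14 and 0.958 times. Each gene thus lay above the sum in every line and below the product in 3 of 4 lines, and both were below the product in the control lines.

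**Figure D2:**
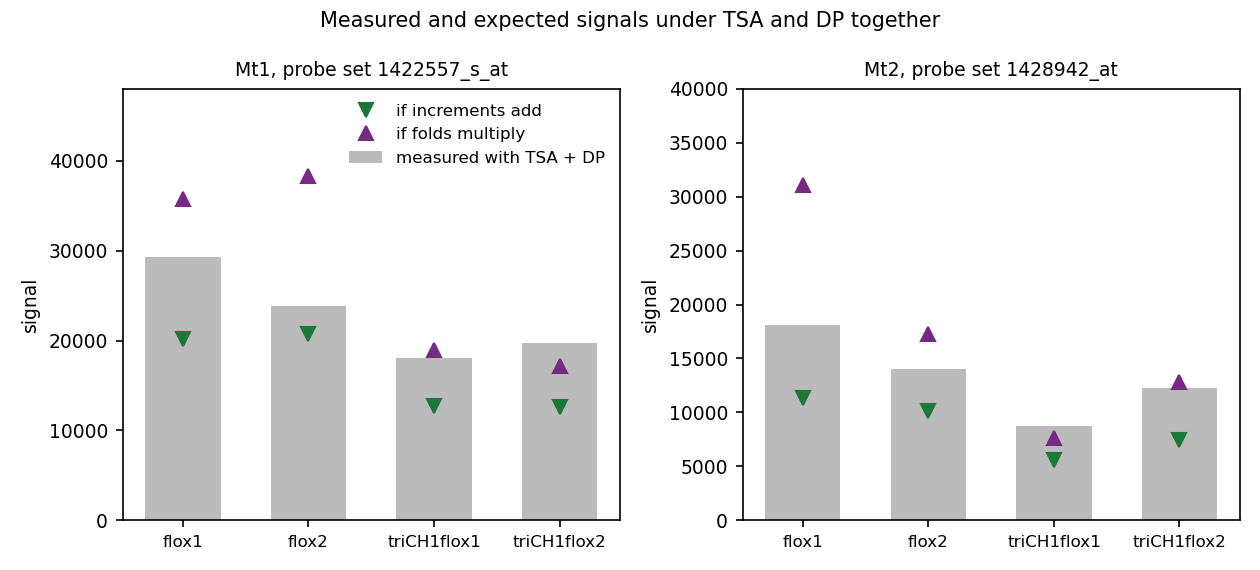
Measured signal under TSA and DP (grey bars, signal units, 1 array per line) with the signal expected if the increments of the agents add (green) or if their folds multiply (purple). All 8 bars end above the sum, by 1.15 to 1.65 times, and the product lies above the bar in all lines except triCH1flox2 for Mt1 and triCH1flox1 for Mt2.

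The brightest Mt1 value, 29297, compares with highest signals of 42346 to 54585 on the arrays. Whether bright probes compress the response at this level was not tested.

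For 5 targets of HIF taken for comparison, the DP response was smaller in TSA-treated cells. These 5 do not stand for all genes raised by DP, and some others are given below. Bnip3, a mitophagy receptor, changed by 3.40 with DP alone and by 1.30 on top of TSA, a joint effect of -2.10 (adjusted p 5.54e-08). The joint effect was -2.27 for Egln3 (adjusted p 9.46e-06), an oxygen-sensing prolyl hydroxylase, and -2.48 for Pdk1 (adjusted p 0.000121), a kinase that inhibits pyruvate dehydrogenase. It was -1.29 for Slc2a1 (adjusted p 3.96e-06), the glucose transporter GLUT1, and -1.08 for Vegfa (adjusted p 0.0338), the angiogenic growth factor. Their 95% intervals did not overlap those of Mt1, and only that of Vegfa, -1.54 to -0.62, reached that of Mt2. The joint effect of Mt1 was above the mean of the 5 targets in 4 of 4 lines, by 1.64 ± 0.375 (SD, n = 4). For Mt2 it was above by 1.63 ± 0.118. These genes share all 16 arrays and the metallothioneins were chosen with this contrast in view, so these differences are descriptions.

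**Figure D3:**
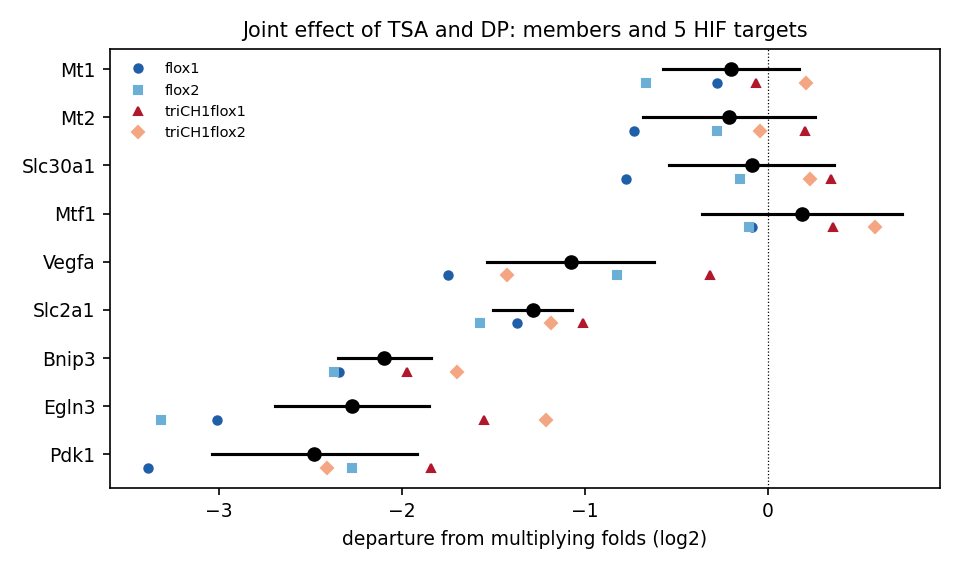
Departure of the joint effect of TSA and DP from the product of folds (log2, 0 at the dotted line) for the 4 members and 5 HIF targets. Black points and bars are the fit over 4 lines with its 95% interval and the coloured marks below are single lines. On the brightest probe set of each gene, the members' estimates run from -0.21 to 0.19 with intervals that hold 0. Those of the HIF targets run from -2.48 to -1.08.

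The metallothionein response to DP lay lower in both triCH1 lines than in both control lines, but the class difference did not pass the test across all genes. By line, Mt1 changed by 2.66 in flox1, 2.89 in flox2, 1.40 in triCH1flox1 and 1.97 in triCH1flox2, and Mt2 by 3.10, 2.47, 0.98 and 1.95. Both control lines lay above both triCH1 lines for each gene. As folds, DP gave 6.85 in the control class and 3.22 in the triCH1 class for Mt1, and 6.89 and 2.76 for Mt2. The class difference was -1.09 for Mt1 (SE 0.248, 95% interval -1.61 to -0.57, adjusted p 0.288) and -1.32 for Mt2 (SE 0.316, interval -1.99 to -0.65, adjusted p 0.350). Their unadjusted p were 0.000427 and 0.000665. In this comparison 0 of 4 members passed, 2 of 4 had an unadjusted p under 0.05, and 0.0261% of all genes passed. Without the EtOH array of flox1 the value of Mt2 was -0.93. In triCH1flox1 the EtOH array came from a different array series than its other arrays, so its DP change is confounded with the series. With the series as a term, limma gave -0.99 for Mt1 (adjusted p 0.669) and -1.04 for Mt2 (adjusted p 0.745). The second, dimmer probe set of Mt1 gave 0.93 (adjusted p 0.969 over probe sets), and the mean of its probe sets gave -0.08 (adjusted p 0.995). Leaving out each line in turn gave -1.38 to -0.80 for Mt1 and -1.80 to -0.84 for Mt2.

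Among the genes that did pass was Ndrg1, a hypoxia gene also reported as an MTF-1 target, with a class difference of -1.56 (adjusted p 0.0458). No gene passed that comparison with any 1 line left out, with the array series as a term or without a variance trend, so that call was lost there. On top of TSA, Mt1 changed with DP by 2.38 in flox1, 2.22 in flox2, 1.33 in triCH1flox1 and 2.18 in triCH1flox2, and Mt2 by 2.36, 2.19, 1.18 and 1.91. The line triCH1flox1 was the lowest in each case, and triCH1flox2 came next. The TSA change was 1.04, 1.06, 1.09 and 0.62 for Mt1 and 1.76, 0.98, 1.07 and 1.17 for Mt2. The class difference in the TSA change was -0.20 for Mt1 and -0.25 for Mt2 (adjusted p 0.889 for each), and 0 of 4 members passed, with 1 of 4 (Slc30a1) at an unadjusted p under 0.05. No gene passed that comparison (0%), and 655 had an unadjusted p under 0.05. The estimate for Mt2 became 0.14 without the EtOH array of flox1, whose Mt2 signal of 991 was the lowest of the 16.

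Averaged over treatments, the levels of the members did not differ between classes past the threshold. The difference, triCH1 minus control, was -0.25 for Mt1 (adjusted p 0.434), -0.28 for Mt2 (adjusted p 0.397), 0.31 for Mtf1 (adjusted p 0.512) and 0.14 for Slc30a1 (adjusted p 0.754), with limma on line means. In all, 0 of 4 passed, 2 of 4 had an unadjusted p under 0.05, and 0.157% of all genes passed (0.0174% higher in triCH1, 0.139% lower). Without the EtOH array of flox1, over the other 3 treatments, the values were -0.42 for Mt1, -0.49 for Mt2 and -0.013 for Slc30a1.

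**Figure D4:**
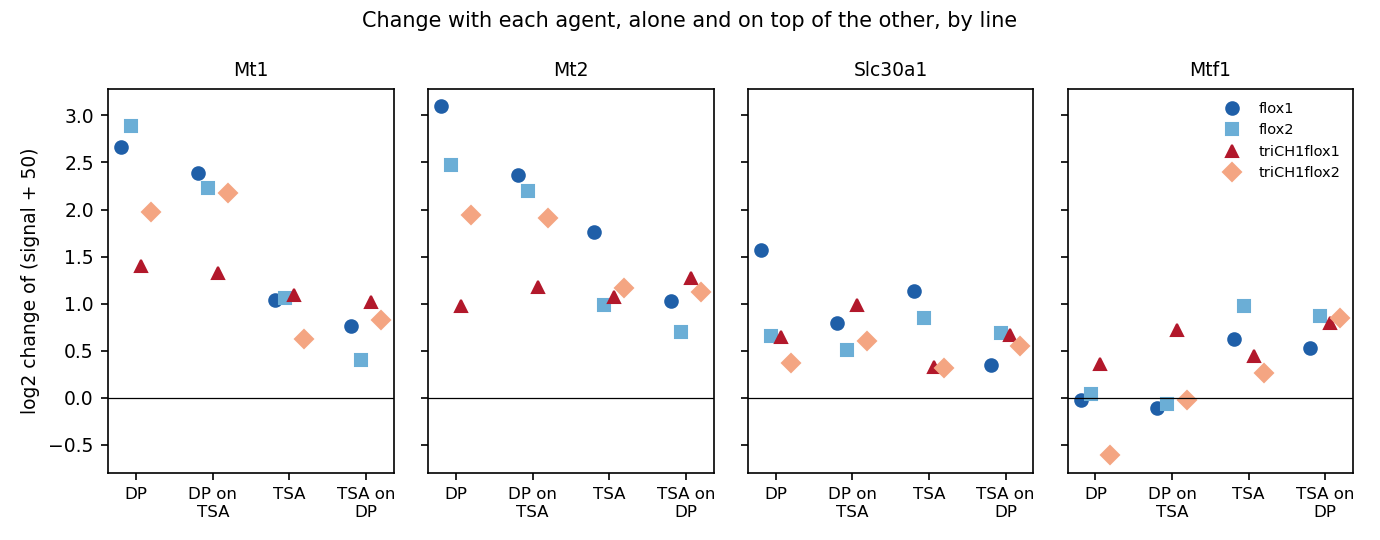
Log2 change of signal plus 50 for the 4 members with DP and with TSA, each alone and on top of the other agent, 1 point per line. For Mt1 and Mt2 the changes with DP alone lie higher in the control lines (blue) than in the triCH1 lines (red). They are 2.47 to 3.10 against 0.98 to 1.97. The changes with TSA alone overlap between the classes. Those of TSA on top of DP lie lower in the control lines, a difference that was not tested. They are 0.40 to 0.76 against 0.83 to 1.02 for Mt1, and 0.70 to 1.03 against 1.13 to 1.27 for Mt2.

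On the brighter of its probe sets Slc30a1, the zinc exporter, was higher under each agent than under EtOH in every line. Its signal there was 302 in flox1, 479 in flox2, 599.9 in triCH1flox1 and 595 in triCH1flox2 under EtOH. Under DP it was 994, 787, 964 and 785, and under TSA 720.4, 903, 764 and 756. Every treated array was above every EtOH array. Under both agents it was 1283, 1303, 1565 and 1171, above every array of a single agent. The fitted DP change was 0.81 (1.75-fold, SE 0.150) and the TSA change 0.66 (1.58-fold, SE 0.150). On top of TSA the DP change was 0.72 (1.65-fold).

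By line the DP change of Slc30a1 was 1.57 in flox1, 0.66 in flox2, 0.64 in triCH1flox1 and 0.37 in triCH1flox2. The line flox1 was the highest, and its EtOH signal the lowest of the 16. The class difference was -0.61 in the DP change (adjusted p 0.979) and -0.67 in the TSA change (adjusted p 0.809), and without the EtOH array of flox1 these were -0.31 and -0.37. The second probe set of the gene was dimmer, at 73.3 to 360.2 over all arrays. It changed by 0.92 with DP and by -0.19 with TSA, so the probe sets differ in sign with TSA. On this dimmer probe set TSA lowered the signal in flox1, triCH1flox1 and triCH1flox2 and raised it in flox2. With the mean of the probe sets the TSA change was 0.23.

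Mtf1, which encodes the zinc sensor itself, had overlapping signals under EtOH and DP. On its brightest probe set the signal was 371, 275, 347 and 602 under EtOH in flox1, flox2, triCH1flox1 and triCH1flox2, and 364, 283, 459.6 and 377 under DP. The change was -0.06 (SE 0.182, 95% interval -0.44 to 0.33), and 0.0088 without the EtOH array of flox1. Under TSA the signal was 598, 589, 489.5 and 731, and under both agents 549.7, 561, 836 and 717. The TSA change was 0.58 (1.49-fold, SE 0.182), with TSA above EtOH in 4 of 4 lines although the ranges overlapped, and DP on top of TSA gave 0.13.

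The next 2 probe sets of Mtf1 changed with TSA by 0.04 and 0.14, and the mean of the 3 gave 0.25. The other 2, at 10.3 to 143.8 and 12.8 to 114.2, did not reach a signal of 200 and were not tested, so 8 of the 10 probe sets of the members were.

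**Figure D5:**
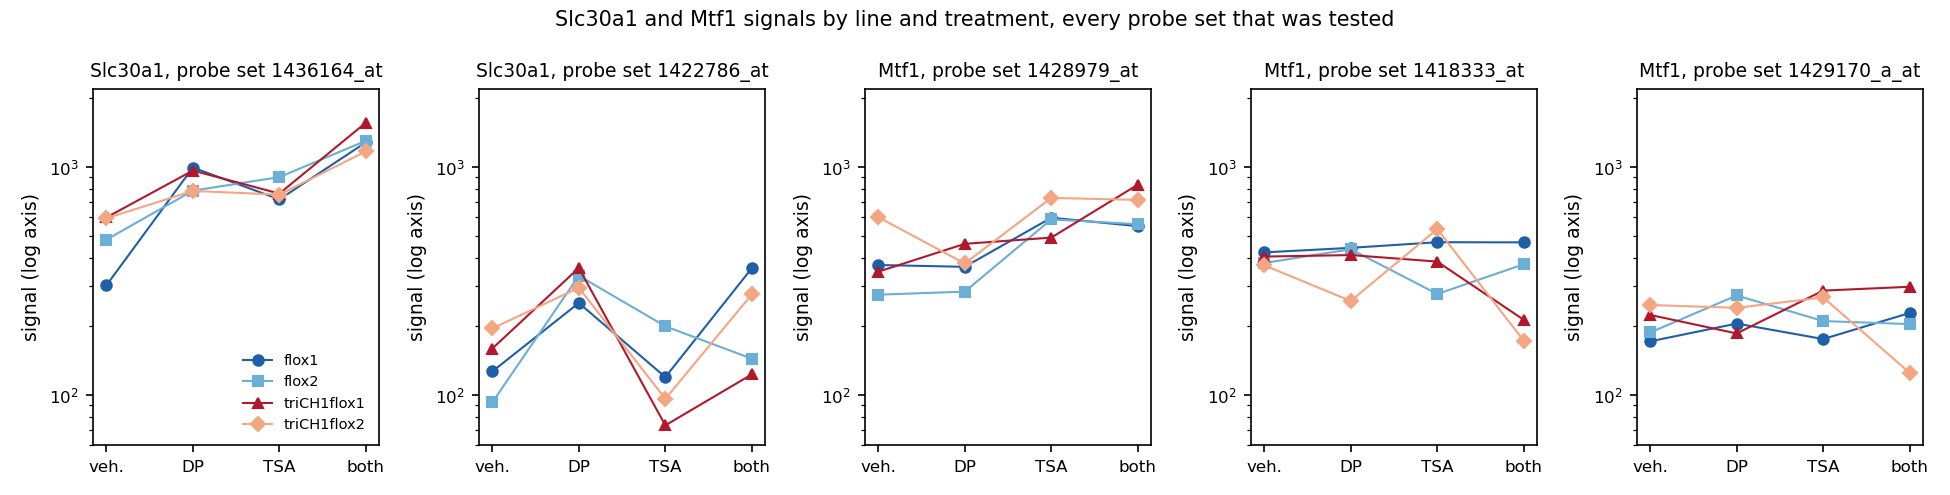
Signals (log axis) of the tested probe sets of Slc30a1 and Mtf1 in 4 lines, 1 array per point. On the brighter Slc30a1 probe set the combined treatment gave 1171 to 1565, above all other arrays, whereas the probe sets of Mtf1 overlap between EtOH and DP.

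The second probe set of Mt1 was dim, at 17 to 249 except under both agents. There it read 695.9 in flox1, 452 in flox2, 345 in triCH1flox1 and 644 in triCH1flox2, above every array of the other treatments. Its joint effect was 1.46 above the product of folds (SE 0.496, unadjusted p 0.00975, adjusted p 0.691), opposite in sign to that of the bright probe set. Its EtOH value of 236 in flox1 compares with 17 to 83 in the other lines. With TSA it fell in flox1 (to 32.6) and triCH1flox1 (36.2 to 18.4) and rose in flox2 (83 to 145.1) and triCH1flox2 (17 to 46.8). With DP it was 222.7 in flox1, below EtOH, and rose in the other lines. Its fitted TSA change was -0.26. The mean of both Mt1 probe sets gave 0.63 (adjusted p 0.651) for the joint effect and 0.35 for the TSA change.

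Of 9 further zinc exporters of the Slc30 family, 6 were tested and 0 passed with DP (limma; 1 had an unadjusted p under 0.05), with a median change of 0.05 against -0.03 over all genes and a background of 1.71% of genes passing. With TSA 2 rose and 0 fell, where 15.8% of all genes rose and 12.5% fell. Slc30a4, which loads zinc into vesicles, rose from 2295 to 3939 on average (1.73-fold, adjusted p 6.09e-05), and Slc30a7, a transporter of the Golgi, rose 1.41-fold (adjusted p 0.0115). Of 14 zinc importers of the Slc39 family, 10 were tested and 0 passed with DP, none of them at an unadjusted p under 0.05 either. With TSA 2 of the 10 fell, against 12.5% of all genes, the plasma membrane importer Slc39a10 by 0.56 (adjusted p 0.00282) and the intracellular transporter Slc39a13 by 0.48 (adjusted p 0.00951) on the log2 scale. In neither family did a gene pass in the joint effect.

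Mt3, the metallothionein best known from brain, gave 17.8 to 428 over all arrays and did not pass with DP (-0.08, adjusted p 0.970) or TSA (0.20, adjusted p 0.819). Mt4, known from squamous epithelium, reached 174 at most and was not tested. Of 6 other genes reported as MTF-1 targets, 1 rose with DP and 2 with TSA, against 1.44% and 15.8% of all genes. Ndrg1 rose 3.63-fold with DP (adjusted p 6.45e-08) and Gclc, a subunit of the enzyme that makes the precursor of glutathione, rose 1.85-fold with TSA (adjusted p 4.9e-05). On top of TSA Ndrg1 changed by 0.81 (adjusted p 0.00678), and its joint effect of -1.05 (adjusted p 0.00913) passed where those of Mt1 and Mt2 did not, a difference that was not tested.

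Genes of other inducers of metallothioneins were counted in the same way. Of 8 tested genes of copper handling, 1 rose with DP, Atp7a, a copper exporter (1.54-fold, adjusted p 0.0058), and 3 rose with TSA, against the same 1.44% and 15.8%. Of 6 glucocorticoid response genes, 0 passed with DP (2 had an unadjusted p under 0.05) and 3 rose with TSA, against 15.8% of all genes. Those were Fkbp5 1.68-fold, Per1 2.24-fold and Dusp1 1.21-fold (adjusted p 0.00117, 0.0026 and 0.0142). Of 7 tested genes of heavy metal and oxidative stress, Hmox1, a heme-degrading enzyme, rose with DP (2.02-fold, adjusted p 0.0129), where 1.44% of all genes rose. The heat shock genes Hspa1a (3.91-fold, adjusted p 3.44e-06) and Hspa1b (2.00-fold, adjusted p 2.08e-06) rose with TSA, where 15.8% of all genes rose. The part of any of these in the metallothionein response was not tested.

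The patterns most like Mt1 over the 16 arrays, after each line's mean was taken off, were those of Mt2 (Pearson r 0.983), Ero1a (0.974), Plod2 (0.947), Tfrc (0.936) and Ier3 (0.912). Slc30a1 ranked 10 (0.883) and Mtf1 2664 (0.297). Ero1a, an oxidase of the endoplasmic reticulum, changed by 2.14 with DP and 1.15 with TSA, with a joint effect of -0.77. The joint effect was -0.32 for Plod2, -0.34 for Tfrc and -0.87 for Ier3, all raised by DP and picked by their likeness to Mt1. The genes most like Slc30a1 were Dnajc21 (0.924), Fam217b (0.921), Mt2 (0.921), Gtf2e2 (0.908) and Sun1 (0.907), with Mt1 at rank 15. These correlations describe arrays that share lines and treatments.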

How the data were processed

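The authors deposited 1 intensity per probe set and array, the signal of Affymetrix's statistical algorithm on mouse 430 2.0 arrays scaled to a target of 500, per the labels. A 2% trimmed mean of 500 was found on each array. The software version is not given in the sources used here. Values were analysed as log2(signal + 50). Probe sets with 1 gene symbol and a signal of at least 200 on at least 2 arrays were kept (19895), and for each gene the one with the highest mean, which gave 11481 genes. A model of 8 group means with the line as a block was fitted with limma 3.58.1 (R 4.3.3) with a variance trend, and p values were adjusted by Benjamini and Hochberg within each comparison, with a threshold of 0.05. The line is a block because the same cells received the 4 treatments. Deviations from the group means were correlated between arrays of a line, at 0.160 to 0.328 for control lines and 0.077 to 0.320 for triCH1 lines. The steps were tested on simulated data. Named genes are the members, 5 HIF targets, the genes of 7 lists that passed (up to 4 per list and comparison with the smallest adjusted p), the 5 genes most like Mt1 and Slc30a1, and Crebbp and Ep300. Eif2s3y was named after its values were seen. Changes of the members with either agent were fitted but are given without a test. Members and lists were chosen with earlier results of these data known. Alternatives were another pseudocount, no filter, quantile normalization, the mean of probe sets, no variance trend, no block, the array series as a term, the signal scale, and each line or the EtOH array of flox1 left out.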

Additional observations from a re-analysis of the deposited data

How the results depend on the processing

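Without the replicate block the joint effect passed for 30 genes, against 45 with it, DP for 135 against 196, TSA for 2622 against 3241 and DP on top of TSA for 11 against 17. In this balanced design the block could not move the estimates of the members' joint effects. None passed without it, and leaving it out changed no call on the tested values of a member. Without a variance trend the counts were 14 for the joint effect, 124 for DP, 9 for DP on top of TSA, 0 for the class difference in DP (against 3) and 2 for class levels (against 18). With the array series as a term the class difference in DP passed for 0 genes. Class levels passed for 32 genes with no filter and for 5 without the EtOH array of flox1, where the mean was taken over the other 3 treatments.

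The joint effect of Mt1 turned from -0.20 to 0.63 with the mean of its probe sets, and that of Mtf1 from 0.19 to -0.15. Without the EtOH array of flox1 that of Slc30a1 was 0.057. On the signal scale, where 0 is the sum and not the product, the values of Mt1, Mt2 and Slc30a1 were 6177, 4660.0 and 156, above 0 by the other zero point. Signs also changed for Mtf1 with DP (0.0088 without that array), DP on top of TSA (-0.15 with the mean of probe sets) and the class differences in TSA (0.00064) and in the joint effect (-0.15) with that mean. The class difference in TSA was 0.26 for Mt1 with that mean, and for Mt2 0.025 with the series and 0.14 without the array. The class level of Slc30a1 was -0.013 without it. The cause of these changes was not tested.

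Leaving out each line in turn gave 16 to 20 genes for the joint effect, 108 to 195 for DP, 2071 to 2454 for TSA, 11 to 15 for DP on top of TSA, 0 for the class difference in DP, 0 to 6 for that in TSA and 16 to 209 for class levels. Of the joint effects, Mt1 ran from -0.30 to -0.10, Mt2 from -0.33 to -0.10, Mtf1 from 0.13 to 0.24 and Slc30a1 from -0.25 to 0.066. For Mtf1 the DP change ran from -0.30 to 0.18, DP on top of TSA from -0.058 to 0.31 and the class difference in DP from -0.62 to 0.35. The class difference in TSA ran from -0.43 to 0.038 for Mt1 and from -0.64 to 0.14 for Mt2. With 2 lines per class and 1 array per line and treatment, the number of arrays limits the precision.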
